A study of Mus musculus with 16 samples.

Results

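*Pomc*, *Cartpt*, *Agrp* and *Npy* encode the precursors of the main feeding peptides of the arcuate nucleus, the hypothalamic nucleus beside the third ventricle. These 4 genes were taken by symbol from the 28683 genes listed in the deposited counts, and each was listed in all 16 libraries. *Pomc* encodes pro-opiomelanocortin, which is cut into α-MSH, a peptide that acts on melanocortin receptors and lowers food intake. *Cartpt* encodes the CART peptides, which are made in arcuate *Pomc* neurons and in many other hypothalamic neurons. *Agrp* encodes agouti-related peptide, which blocks the melanocortin receptors, and *Npy* encodes neuropeptide Y. Arcuate *Agrp* neurons also make neuropeptide Y, drive feeding and are inhibited by leptin, whereas *Npy* is also made by other neurons across the brain. *Pomc* is also made by corticotrophs and melanotrophs of the pituitary gland, which hangs below the arcuate nucleus. On assembly GRCm38.p6 (the files were counted on mm10), RefSeq places *Npy* at chr6:49822710-49829507, *Agrp* at chr8:105566695-105579845, *Pomc* at chr12:3954945-3960643 and *Cartpt* at chr13:99898483-99910179.

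Single cells of the dissected hypothalamus and preoptic area were profiled by Drop-seq, a droplet method in which captured transcripts are tagged by droplet (the cell barcode) and by molecule (the unique molecular identifier, UMI), with 1 library per mouse. The mice were labelled female and of a mixed CD-1;129P2 strain. Oil, the vehicle, was given to 3 wild-type and 4 *Esr1* cKO mice, and tamoxifen, a modulator of estrogen receptors, was given at 0.1 mg/kg to 5 wild-type and 4 *Esr1* cKO mice, over 28 daily injections in each group. The comparisons ask whether tamoxifen changed the peptide genes and whether loss of *Esr1*, the gene of estrogen receptor alpha, altered that response. The injections began at an age of 8 to 10 weeks, and tissue was taken 2 hours after the last of them. *Esr1* cKO mice, labelled Esr1cKO, carry a floxed *Esr1* gene and a Cre transgene driven from an *Nkx2-1* BAC, so that *Esr1* is lost only from cells whose lineage expressed *Nkx2-1*, and the wild-type mice were their littermates without Cre. Levels are given as CPM (counts-per-million), the UMIs of a gene scaled to the UMIs of all genes. In the summed neurons, *Esr1* lay at 17.1 to 73.9 CPM (median 49.4) in the 8 *Esr1* cKO libraries and at 44.1 to 86.5 (median 62.4) in the 8 wild-type libraries. The genotypes thus overlapped, and this level did not separate the labels. The study likewise found no significant drop of *Esr1* RNA in its single cells. It reported loss of estrogen receptor alpha protein by immunostaining in several regions of *Esr1* cKO mice, the arcuate nucleus among them.

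The libraries held 2634253 to 8038158 UMIs each. After the study's cell filter, 55675 cells remained, of which 9133 formed the neuronal cluster, 244 to 906 per library, with a median of 1490 UMIs per neuron. A further 76760 barcodes had 200 genes or fewer (median 86 UMIs). These low-gene barcodes hold the RNA of no identified cell and stand here for free RNA and cell remnants. A pair of libraries stood apart, replicate 3 of wild-type oil and replicate 3 of *Esr1* cKO tamoxifen, since all of their barcodes had at least 100 genes, against at least 20 elsewhere. Cell barcodes were shared between libraries, most of all among wild-type tamoxifen replicates 4 and 5, *Esr1* cKO oil replicate 4 and *Esr1* cKO tamoxifen replicate 4, where each pair shared 624 to 873 barcodes and 303 to 359 kept cells. The UMI totals of the kept cells shared by a pair of these 4 libraries correlated at r = 0.969 to 0.994, and at least 99.4% of them were of the same cell type in both libraries. Shared cells held 11.2% to 20.5% of the neuronal UMIs of these 4 libraries. A *Pomc* neuron with 1 barcode, for example, had 76, 48, 63 and 66 *Pomc* UMIs in wild-type tamoxifen replicate 4, *Esr1* cKO tamoxifen replicate 4, *Esr1* cKO oil replicate 4 and wild-type tamoxifen replicate 5. Pairs of libraries within the 3 other sets of 4 shared 24 to 167 barcodes, and pairs from different sets 1 to 16, or up to 191 barcodes and 42 kept cells where wild-type oil replicate 2 was 1 of the pair. Values without shared barcodes and without the libraries that stood apart are given where they change a result.

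Each of the 4 genes was mainly a neuronal transcript. Neurons held 83.8% of the kept UMIs of *Pomc*, 96.7% of *Cartpt*, 95.2% of *Agrp* and 85.2% of *Npy*. Over the 16 libraries, the level in neurons was 194 ± 160 CPM (mean ± SD) for *Pomc*, 539 ± 254 CPM for *Cartpt*, 37.4 ± 46.3 CPM for *Agrp* and 206 ± 193 CPM for *Npy*. The SD was thus close to or above the mean for *Pomc*, *Agrp* and *Npy*, and smaller than the mean for *Cartpt*. Levels of different genes are not ranked against each other here.

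**Figure D1:**
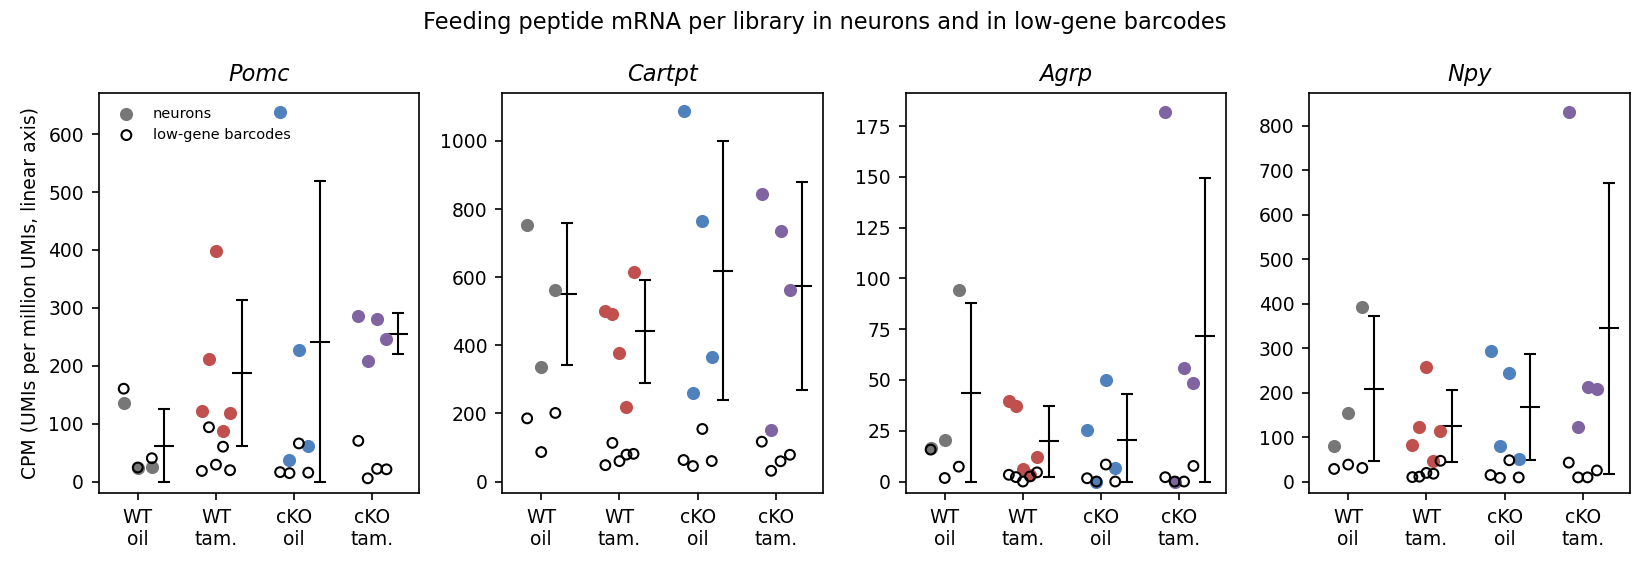
CPM of each gene in the summed neurons (filled points) and in the low-gene barcodes (open circles) of each of the 16 libraries, on a linear axis for each gene. The cross and bar beside each group give the mean and SD over its libraries in neurons, with the bar stopped at 0. In neurons, *Cartpt* lay above its level in the low-gene barcodes in 16 of 16 libraries, while *Pomc*, *Agrp* and *Npy* each had a library far above the rest.

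RNA of each gene was present in the low-gene barcodes, at a lower pooled level than in neurons. The low-gene barcodes of all libraries together held *Pomc* at 38.1 CPM (379 UMIs), *Cartpt* at 91.4 CPM (909 UMIs), *Agrp* at 3.32 CPM (33 UMIs) and *Npy* at 23.1 CPM (230 UMIs). The pooled level in neurons was 5.37-fold higher for *Pomc*, 6.27-fold for *Cartpt*, 12.6-fold for *Agrp* and 9.36-fold for *Npy*. Neurons lay above the low-gene barcodes of their own library in 13 of 16 libraries for *Pomc*, 16 for *Cartpt*, 14 for *Agrp* and 16 for *Npy*. The peptide UMIs were not spread evenly over the low-gene barcodes, of which 14 had at least 5 UMIs of *Pomc*, 20 of *Cartpt*, 0 of *Agrp* and 4 of *Npy*, and the highest counts in a barcode were 23, 27, 4 and 6 UMIs. At least 2 UMIs were found in 43 of the 189 barcodes with *Pomc*, 151 of 598 with *Cartpt*, 5 of 26 with *Agrp* and 20 of 188 with *Npy*. Free RNA and cell remnants were not told apart, so these levels do not measure free RNA alone.

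The level in low-gene barcodes varied between libraries as well. *Pomc* ran there from 5.55 to 160 CPM (median 23.1), with wild-type oil replicate 1 highest. *Cartpt* ran from 31.5 to 201 CPM (median 78.8), with wild-type oil replicates 1 and 3 highest at 185 and 201 CPM. *Agrp* lay at 0 to 15.7 CPM (median 2.15) and *Npy* at 8.25 to 47.8 CPM (median 18.5). In a library, 3 UMIs correspond to 3.06 to 9.43 CPM in the low-gene barcodes, so that *Agrp* there was at or near the floor of detection in most libraries.

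Outside neurons, each of the 8 cell types lay below the pooled low-gene barcodes for each gene, except for *Npy* in ependymal cells. *Npy* in these cells, the ciliated cells and tanycytes that line the ventricle, was at 71.5 ± 33.9 CPM (SD, n = 16 libraries), and 9.36% of the 3183 cells had a *Npy* UMI (95% Clopper-Pearson interval 8.37% to 10.4%). That is a pooled level 3.69-fold above the low-gene barcodes, and *Npy* was detected there in every library, at 26.7 to 142 CPM. Within this cluster, which matched as many tanycyte as ependymal markers, the 1582 cells with more UMIs of ependymal markers held *Npy* at 124 CPM and the 1420 cells with more UMIs of tanycyte markers at 22.3 CPM. A *Npy* UMI was found in 16% of the former and 2.32% of the latter, at median depths of 1397 and 960 UMIs. *Pomc* was also higher in the former, at 31.5 CPM against 16 CPM, both below the 38.1 CPM of the low-gene barcodes, while *Cartpt* lay at 2.68 and 4.66 CPM. In all, *Npy* made up 74.2% of the 581 UMIs of the 4 genes in ependymal cells, against 14.8% in the low-gene barcodes and 20.9% in neurons.

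*Pomc* in endothelial cells was low and even. It lay at 37.0 ± 9.50 CPM (SD, n = 16), between 21.9 and 53.4 CPM in every library, and a *Pomc* UMI was found in 3.87% of the 7192 cells (95% Clopper-Pearson interval 3.43% to 4.34%), with no more than 3 UMIs in a cell. The pooled level of 37.3 CPM was not above the 38.1 CPM of the low-gene barcodes, which hold cell remnants as well as free RNA. The mix of the 4 genes differed, however: *Pomc* made up 77.0% of their 400 UMIs in endothelial cells and *Cartpt* 15%, against 24.4% and 58.6% of the 1551 UMIs in the low-gene barcodes. A *Pomc* UMI was also found in 3.74% of ependymal cells, at 21.5 ± 10.7 CPM. In the 6 remaining types it was found in 0.487% to 0.860% of the cells, at pooled levels of 7.86 to 13.7 CPM, which did not differ beyond their SDs. *Cartpt* and *Agrp* lay below the low-gene barcodes in all 8 non-neuronal types, at 3.56 to 15.1 CPM and 0 to 1.64 CPM.

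**Figure D2:**
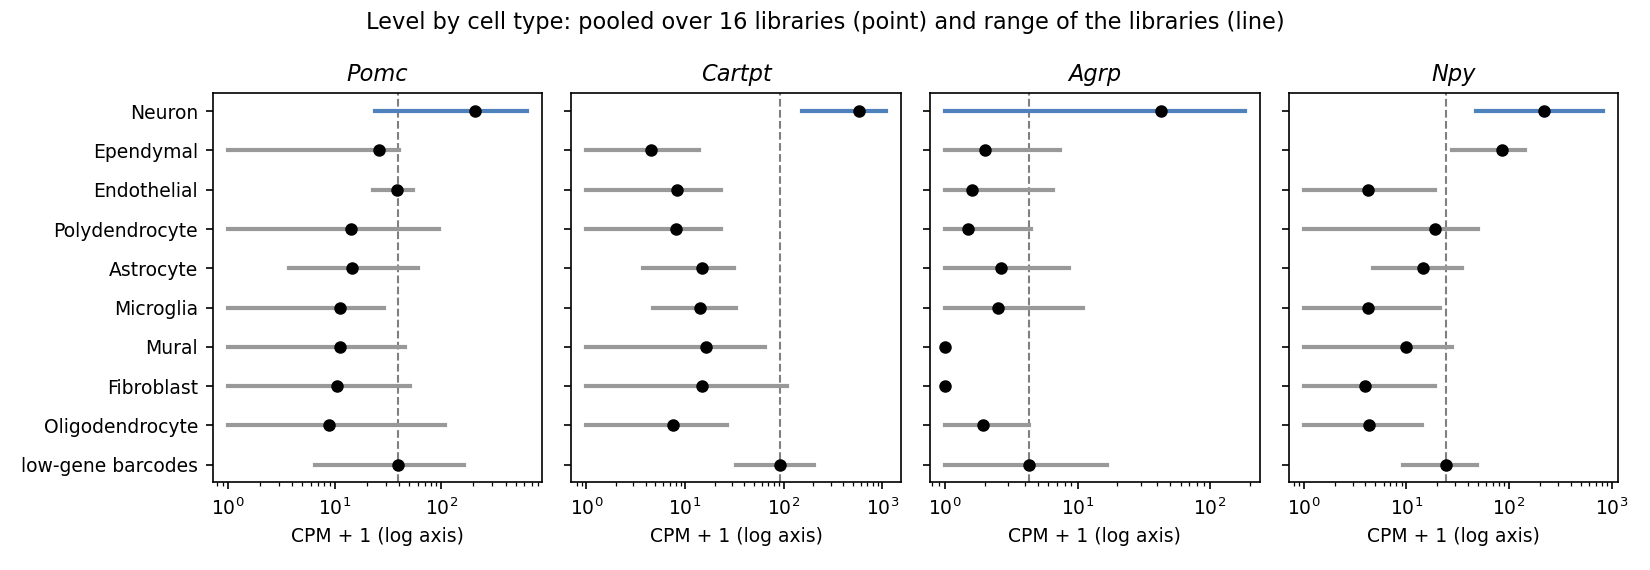
Level of each gene by cell type on a log axis of CPM + 1. Points give the level pooled over the 16 libraries, lines the range of the libraries, and the dashed line the pooled level in low-gene barcodes. Neurons lead for each gene, *Npy* in ependymal cells is the only other point clearly above the dashed line, and the endothelial points for *Pomc* span only 21.9 to 53.4 CPM.

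Within neurons, most of the RNA of each gene lay in a small number of cells. A neuron with at least 5 UMIs of a gene is called rich in it. There were 62 *Pomc*-rich neurons (0.679% of 9133), 392 *Cartpt*-rich (4.29%), 46 *Agrp*-rich (0.504%) and 100 *Npy*-rich neurons (1.09%). They held 91.9% of the neuronal UMIs of *Pomc*, 86.6% of *Cartpt*, 90.5% of *Agrp* and 92.7% of *Npy*. The highest counts in a neuron were 226, 584, 64 and 184 UMIs. Just below the threshold, with 2 to 4 UMIs, were 34 neurons for *Pomc*, 371 for *Cartpt*, 11 for *Agrp* and 67 for *Npy*. The median depth of the rich neurons was 2998.5 UMIs for *Pomc* and 3941, 4065.5 and 3897.5 for *Cartpt*, *Agrp* and *Npy*, against 1490 for all neurons. Of the rich neurons, 0 for *Pomc*, 5 for *Cartpt*, 1 for *Agrp* and 1 for *Npy* were called doublets by Scrublet. Without barcodes found in more than 1 library, 50, 331, 40 and 87 rich neurons remained.

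The *Agrp*-rich neurons were also rich in *Npy*, and the *Pomc*-rich neurons were others. All 46 *Agrp*-rich neurons, from 13 libraries, were also *Npy*-rich (100%, 95% Clopper-Pearson interval 92.3% to 100%), with a median of 50 *Npy* UMIs. In neurons without an *Agrp* UMI, 0.465% were *Npy*-rich. In turn, 46 of the 100 *Npy*-rich neurons were *Agrp*-rich, and 54 were rich in *Npy* without *Agrp*. Of the 62 *Pomc*-rich neurons, 0 had an *Agrp* UMI and 1 had a *Npy* UMI. Counting the barcodes shared within the set of 4 libraries once, they were 56, and 0 of 56 allows a share with an *Agrp* UMI of up to 6.38% (the upper Clopper-Pearson limit), which bounds detected UMIs and not expression. None of the *Pomc*-rich neurons was rich in *Agrp* or *Npy*. Conversely, a *Pomc* UMI was found in 4 of the 46 *Agrp*-rich neurons (8.70%) and in 8 of the 100 *Npy*-rich neurons (8%). In neurons without an *Agrp* UMI it was found in 3.57%, and in those without a *Npy* UMI also in 3.57%. The rich neurons were the deeper ones, as given above.

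*Cartpt* accompanied *Pomc* in part of its neurons. A *Cartpt* UMI was found in 35 of the 62 *Pomc*-rich neurons (56.5%, 95% Clopper-Pearson interval 43.3% to 69.0%, with shared barcodes counted in each library) and in 12.3% of the 8804 neurons without *Pomc*. Of the *Pomc*-rich neurons, 26 were also *Cartpt*-rich (41.9%), against 3.90% of those without *Pomc*. The *Pomc*-rich neurons with 5 or more *Cartpt* UMIs held a median of 67 *Pomc* UMIs, and the 27 with none held a median of 21, at median depths of 4455 and 1946 UMIs. Of the 46 *Agrp*-rich neurons, 16 had a *Cartpt* UMI and 7 were *Cartpt*-rich (15.2%). Most *Cartpt*-rich neurons, 348 of 392, were rich in none of the other 3 genes.

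**Figure D3:**
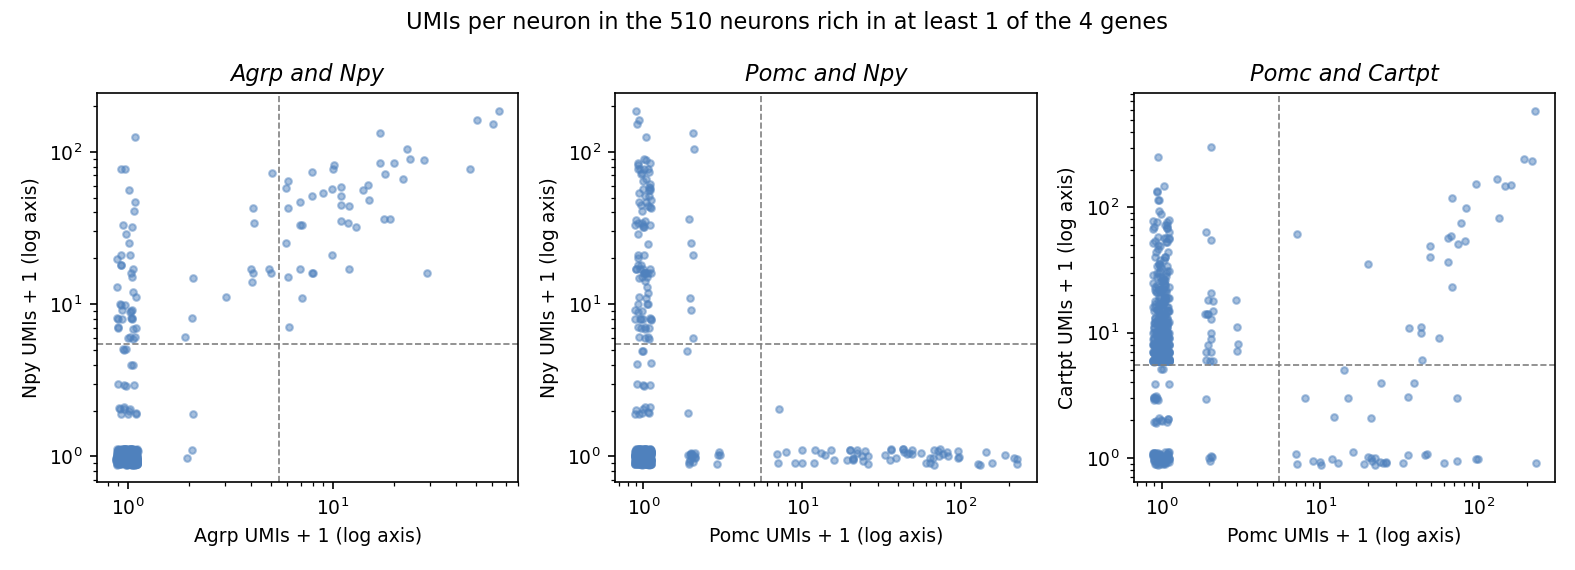
UMIs of 2 genes in each of the 510 neurons rich in at least 1 of the 4, on log axes of UMIs + 1 with a small random shift, and dashed lines at the threshold of 5 UMIs. *Agrp* and *Npy* rise together in 46 neurons, no neuron lies beyond both lines for *Pomc* and *Npy*, and 26 lie beyond both for *Pomc* and *Cartpt*.

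The other transcripts of these neurons, which played no part in choosing them, also differed between the classes. They are given for all cells of a class together, as a description, with intervals that cover counting error only. *Tbx3*, a transcription factor of arcuate neurons, lay at 319 CPM in *Pomc*-rich neurons (71 UMIs from 13 libraries, exact Poisson interval 249 to 403), at 196 CPM in *Agrp*-rich neurons (139 to 268) and at 23.5 CPM in the 8623 neurons rich in none of the 4. *Isl1*, a LIM homeobox factor needed for *Pomc* expression, lay at 157 CPM, 191 CPM and 66.4 CPM in the same order. Both factors were thus higher in both peptide classes than in other neurons. *Npy1r*, a receptor for neuropeptide Y, lay at 148 CPM in *Pomc*-rich neurons (33 UMIs, 102 to 208), at 10.1 CPM in *Agrp*-rich neurons (2 UMIs) and at 21.0 CPM in the others.

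The prohormone convertases, which cut peptide precursors, were present in both classes. *Pcsk1* lay at 148 CPM in *Pomc*-rich, 80.4 CPM in *Agrp*-rich and 85.4 CPM in other neurons, and *Pcsk2* at 355, 206 and 247 CPM. *Lepr*, the leptin receptor, gave only 2 UMIs in *Pomc*-rich and 6 in *Agrp*-rich neurons. *Ghsr*, the ghrelin receptor, gave 0 and 4 UMIs, and *Mc4r*, the melanocortin receptor that α-MSH acts on, 0 and 1. At a value of 13.5 CPM for 3 UMIs in the *Pomc*-rich and 15.1 CPM in the *Agrp*-rich neurons, these 3 receptors could not be compared at this depth. *Hcrt* and *Pmch*, the feeding peptides of the lateral hypothalamus, gave 0 and 1 UMIs in *Pomc*-rich neurons and 0 and 0 in *Agrp*-rich neurons.

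A few further genes, chosen after their values were seen, also differed between the classes. *Otp*, a homeobox factor of *Agrp* neurons, lay at 478 CPM in *Agrp*-rich neurons (95 UMIs from 12 libraries, 386 to 584) and had 0 UMIs in *Pomc*-rich neurons. The activin receptor gene *Acvr1c* lay at 211 CPM against 18 CPM (4 UMIs), and the calcitonin receptor gene *Calcr* at 206 CPM against 22.5 CPM (5 UMIs). The somatostatin gene *Sst* lay at 965 CPM in *Agrp*-rich and 94.4 CPM in *Pomc*-rich neurons. In the opposite direction, *Nkx2-1*, whose Cre transgene removes *Esr1* in the cKO mice, gave 17 UMIs (76.5 CPM) in *Pomc*-rich and 0 in *Agrp*-rich neurons. *Slc32a1*, the vesicular GABA transporter, lay at 111 CPM in *Agrp*-rich neurons and gave 2 UMIs in *Pomc*-rich neurons, and *Slc17a6*, a vesicular glutamate transporter, gave 0 and 15 UMIs. The enzymes of GABA synthesis did not separate the classes in this way, with *Gad2* at 548 CPM in *Agrp*-rich and 522 CPM in *Pomc*-rich neurons and Gad1 at 166 and 94.4 CPM, with overlapping intervals for both. *Esr1* itself lay at 54.0 CPM in *Pomc*-rich neurons (12 UMIs), 20.1 CPM in *Agrp*-rich neurons (4 UMIs) and 53.2 CPM in the others. These *Esr1* values pool both genotypes. *Esr1* cKO oil and *Esr1* cKO tamoxifen mice gave 17 and 22 of the 62 *Pomc*-rich neurons, and 8 and 22 of the 46 *Agrp*-rich neurons.

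Since *Pomc* is also a pituitary transcript, the *Pomc*-rich neurons were checked against 13 pituitary markers. The hormone genes *Tshb*, *Cga*, *Gh*, *Prl*, *Lhb* and *Fshb* gave 0 UMIs in them. A marker other than *Pcsk2*, which neurons also express, was found in 10 of the 62. Of these, 6 were among the 8 *Pomc*-rich neurons of wild-type tamoxifen replicate 3, where 4 held *Tbx19*, the corticotroph factor (10 UMIs), 0 held *Tbx3* and 1 held *Cartpt*. These 6 neurons held 379 of the 425 UMIs of the *Pomc*-rich neurons of that library, the 226 UMIs of the richest neuron among them. In the other libraries, 4 of 54 *Pomc*-rich neurons had such a marker and 33 of 54 held *Tbx3*. Of these 4, the 1 in wild-type tamoxifen replicate 5 had the shared barcode given above, with 66 *Pomc* and 58 *Cartpt* UMIs. In the other libraries of its set the same barcode held 39 to 74 *Cartpt* UMIs and no such marker. A marker UMI thus does not by itself identify a pituitary cell. Values without these 10 neurons, called pituitary-marked, are given beside the group comparisons of *Pomc*.

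The neurons were divided into clusters without the counts of the 4 genes, and 22 clusters had at least 50 neurons. Each is called by number and by the gene that leads it by fold. Among these 22, all 4 genes were at their highest in the same cluster, number 5, led by *Gnrh1*, with 705 neurons (7.72% of all). *Pomc* lay there at 1528 ± 1478 CPM (SD, n = 16 libraries), *Cartpt* at 2051 ± 2129, *Agrp* at 272 ± 282 and *Npy* at 1076 ± 1114 CPM. The cluster held 85.9% of the neuronal UMIs of *Pomc*, 88.7% of *Agrp* and 67.2% of *Npy*, but only 39.9% of *Cartpt*. It held 52 of the 62 *Pomc*-rich, 41 of the 46 *Agrp*-rich, 54 of the 100 *Npy*-rich and 104 of the 392 *Cartpt*-rich neurons. *Tbx3* is among its 10 leading genes. Since its leading genes came from these same cells, they are given as a description only, and the cluster is a mixture in which 523 neurons were rich in none of the 4 genes.

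*Cartpt* was the gene spread over most clusters. Among the clusters with at least 50 neurons it was highest after cluster 5, in pooled CPM, in cluster 4 (*Pmch*, 1812 CPM), cluster 10 (*Foxb1*, 1039), cluster 7 (*Gal*, 843), cluster 11 (*Trh*, 839) and cluster 6 (*Hcrt*, 580). The means over libraries were 1586 ± 1383, 990 ± 459 (n = 14), 893 ± 773, 754 ± 642 (n = 14) and 415 ± 625 CPM, so that neighbours in this order, cluster 5 included, did not differ beyond their spread. In the *Foxb1*-led cluster, 65.3% of its 277 neurons had a *Cartpt* UMI and 23.5% were *Cartpt*-rich. In the *Pmch*-led cluster 8.85% had a *Cartpt* UMI and 3.23% were rich, so that few neurons held its detected UMIs. The median depths were 2490 UMIs per neuron in the *Foxb1*-led and 358.5 in the *Pmch*-led cluster, so these shares are not at equal depth.

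Among the clusters with at least 50 neurons, the other 3 genes fell away steeply outside cluster 5. *Pomc* came next in cluster 4 at a pooled 230 CPM and in the *Tac2*-led cluster 14 at 181 CPM, with 2 and 1 *Pomc*-rich neurons. *Npy* came next in the *Itih3*-led cluster 12 at 253 CPM, cluster 0 (*Hbb-bs*) at 203 CPM and cluster 10 at 177 CPM, and *Agrp* in cluster 0 at 39.8 CPM. The order among these is set by few cells, with 1 to 8 rich neurons in each, and the SD over libraries exceeded the mean in each of them. Smaller clusters are outside this order. In the *Th*-led cluster 24, with 25 neurons, 10 (40%) were *Npy*-rich and 14 (56%) were *Cartpt*-rich. The 54 *Npy*-rich neurons that were not *Agrp*-rich were divided over several clusters. Of them, 13 were in cluster 5, 11 in the *Gad2*-led cluster 1, 10 in the *Th*-led cluster of 25 neurons and 8 in the *Foxb1*-led cluster.

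**Figure D4:**
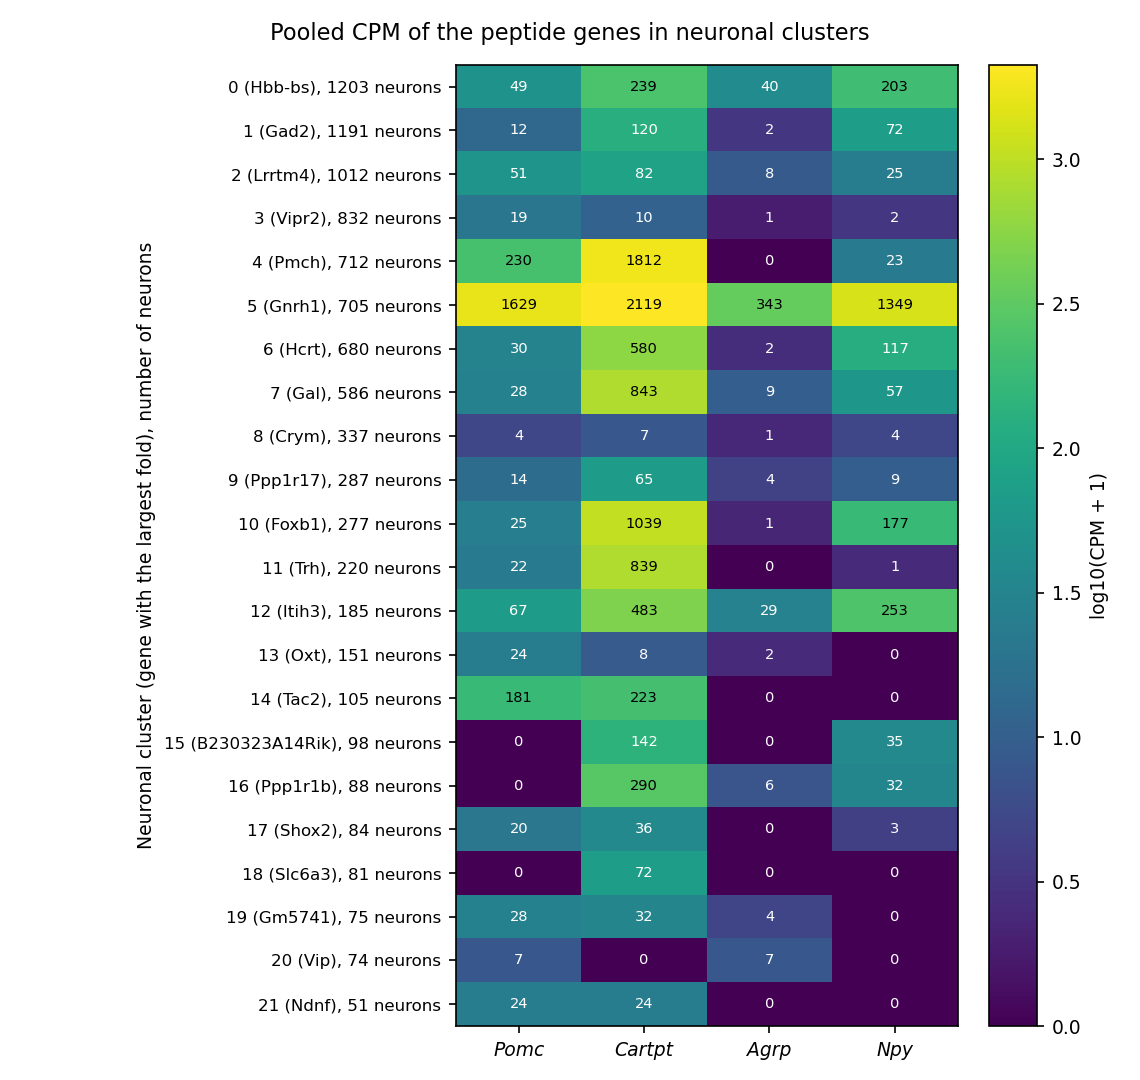
CPM pooled over libraries of each gene in the 22 neuronal clusters with at least 50 neurons, built without the 4 genes, each named by its leading gene and its number of neurons. Colour gives log10(CPM + 1) and the number in each cell the CPM. Cluster 5 is the highest row for each gene, and *Cartpt* is the only gene above 500 CPM in further clusters.

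When the 4 genes were kept among the clustering genes, *Agrp* and *Npy* gained a cluster of their own, with 64 neurons led by *Cited1*, and all 46 *Agrp*-rich neurons fell into it. *Agrp* lay there at 3603 ± 1222 CPM and *Npy* at 12648 ± 5940 CPM (SD, n = 6 libraries with at least 5 such neurons). *Pomc* did not gain one and remained in a *Gnrh1*-led cluster, then of 1016 neurons, at a pooled 1277 CPM. *Cartpt* was then highest in the *Pmch*-led cluster at 2688 CPM (534 neurons).

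The genes most like each of the 4 across the 22 clusters, by Pearson's r of log2(CPM + 10) over 10547 genes, are given as a description, since clusters share libraries and the values rest largely on cluster 5. For *Pomc* they were *Agrp* (r = 0.667), *Atf3* (0.659), *H2-Q2* (0.658), *Crabp1* (0.652) and *Gnrh1* (0.638). For *Agrp* they were *Crabp1* (0.847), *Npy* (0.761), *Ctss* (0.713), *Pomc* (0.667) and *Atf3* (0.655). For *Npy* they were *Isl1* (0.763), *Agrp* (0.761), *BC048546* (0.748), *G0s2* (0.743) and *Qrfpr* (0.712). For *Cartpt* they were *Tmem192* (0.749), *Npy* (0.693), *Rgs4* (0.674), *Rxrg* (0.671) and *Trib2* (0.670). *Pomc* and *Agrp* were thus alike across clusters although no neuron was rich in both.

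Between the 4 groups of mice, none of the 4 genes passed the adjusted threshold in neurons. The UMIs of all neurons of a library were summed, and 12438 genes were tested with edgeR's quasi-likelihood test in each of 5 comparisons. Over all genes, 0% passed a Benjamini-Hochberg adjusted p of 0.05 for tamoxifen against oil within the wild-type mice, 0% in *Esr1* cKO mice, 0% for the difference between these effects (the interaction), 0% for *Esr1* cKO against wild-type mice under oil and 0.00804% under tamoxifen (1 gene). At an unadjusted p of 0.05 the shares of all genes were 3.34%, 3.08%, 5.19%, 4.65% and 3.6% in the same order, and of the 20 tests of the 4 genes 4 had such a p (20%). In these sums, more peptide neurons and more RNA per neuron cannot be told apart. The p-values measure the spread between libraries, and the mice of a group were separate animals. Libraries that share barcodes were not independent for *Pomc* and *Cartpt*, however. Both *Pomc*-rich neurons of wild-type tamoxifen replicate 4 had the same barcodes as both of *Esr1* cKO oil replicate 4. They held 95 of 108 and 69 of 75 neuronal *Pomc* UMIs. The same barcodes were *Pomc*-rich in wild-type tamoxifen replicate 5 and *Esr1* cKO tamoxifen replicate 4. For *Cartpt*, 3 barcodes were rich in all 4 of these libraries. They held 74, 14 and 34 of the 271 neuronal *Cartpt* UMIs of wild-type tamoxifen replicate 4. In wild-type tamoxifen replicate 5 they held 58, 11 and 14 of 653.

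*Pomc* was low in the wild-type oil libraries. Its level in neurons was 136, 23.1 and 25.7 CPM in wild-type oil replicates 1 to 3. In wild-type tamoxifen replicates 1 to 5 it was 122, 211, 397, 86.7 and 119 CPM. It was 638, 36.4, 227 and 61.0 CPM in *Esr1* cKO oil replicates 1 to 4, and 286, 209, 281 and 246 CPM in *Esr1* cKO tamoxifen replicates 1 to 4. The wild-type groups overlapped through oil replicate 1, the *Esr1* cKO oil group spanned 36.4 to 638 CPM, and the *Esr1* cKO tamoxifen group was the tightest (255 ± 35.8 CPM, n = 4). The pituitary-marked neurons held 379 of the 444 neuronal *Pomc* UMIs of wild-type tamoxifen replicate 3 and 66 of the 126 of replicate 5. In replicate 5 this was the shared barcode that was unmarked in the other libraries of its set. Without them these libraries lay at 58.9 and 56.7 CPM, wild-type oil replicates 1 and 2 at 118 and 15.4 CPM, and the wild-type tamoxifen mean fell from 187 ± 126 to 107 ± 63.9 CPM (n = 5).

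The fitted log2 difference of *Pomc* for tamoxifen against oil was 1.67 (SE 0.80, unadjusted p = 0.0521, edgeR) in wild-type mice and 0.08 (SE 0.68) in *Esr1* cKO mice, with an interaction of -1.59 (SE 1.04, unadjusted p = 0.145, edgeR). Without the pituitary-marked neurons the wild-type difference was 1.10 (SE 0.79, unadjusted p = 0.182, edgeR) and the interaction -1.03 (SE 1.03), and the wild-type difference was 2.89 without wild-type oil replicate 1. Under oil, the *Esr1* cKO group was above the wild-type group by 2.09 (SE 0.83, unadjusted p = 0.0216, edgeR). This difference was 0.96 without *Esr1* cKO oil replicate 1 (unadjusted p = 0.193, edgeR) and 3.32 without wild-type oil replicate 1. Under tamoxifen the genotypes differed by 0.51 (SE 0.65), and by 1.29 without the pituitary-marked neurons (SE 0.65, unadjusted p = 0.0614, edgeR). The adjusted p of *Pomc* was at least 0.931 in each of the 5. Within the 3 sets of libraries that share barcodes and hold wild-type mice of both treatments, the wild-type difference in log2(CPM + 10) was 0.61, 3.51 and 1.99, and the *Esr1* cKO difference in all 4 sets was -0.11, -1.13, 2.65 and 1.85. The value of 3.51 compares oil replicate 3, at 25.7 CPM, with tamoxifen replicate 3, which fell from 397 to 58.9 CPM without the pituitary-marked neurons.

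*Agrp* and *Npy* were highest in the same library. *Agrp* lay at 16.3, 20.5 and 94.4 CPM in wild-type oil, 39.8, 37.1, 6.26, 3.21 and 12.2 CPM in wild-type tamoxifen, 25.4, 0, 50.1 and 6.50 CPM in *Esr1* cKO oil, and 182, 0, 55.9 and 48.5 CPM in *Esr1* cKO tamoxifen libraries. *Npy* lay at 80.0, 154 and 392 CPM, at 82.3, 123, 259, 46.6 and 113 CPM, at 293, 80.3, 243 and 51.2 CPM, and at 832, 123, 214 and 208 CPM in the same order. *Esr1* cKO tamoxifen replicate 1 was the highest for both genes, with 29.8% of the neuronal UMIs of *Agrp* and 26.2% of those of *Npy*, and held 16 of the 46 *Agrp*-rich and 24 of the 100 *Npy*-rich neurons, and wild-type oil replicate 3 was the next highest for both. All groups overlapped for both genes.

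Between *Esr1* cKO and wild-type mice under tamoxifen, *Agrp* differed by 1.96 on the log2 scale (SE 0.83, unadjusted p = 0.0299, edgeR) and *Npy* by 1.51 (SE 0.61, unadjusted p = 0.0245, edgeR). The tamoxifen effects on *Agrp* in the 2 genotypes, -1.21 (SE 0.94) in wild-type and 1.75 (SE 0.87) in *Esr1* cKO mice, differed by 2.96 (SE 1.27, unadjusted p = 0.0327, edgeR). Without *Esr1* cKO tamoxifen replicate 1, the genotype differences under tamoxifen were 1.06 for *Agrp* (unadjusted p = 0.244, edgeR) and 0.63 for *Npy* (unadjusted p = 0.295, edgeR), and without wild-type oil replicate 3 the *Agrp* interaction was 1.63 (unadjusted p = 0.256, edgeR). Those on *Npy* were -0.82 (SE 0.66) and 1.03 (SE 0.65), with an interaction of 1.85 (SE 0.93, unadjusted p = 0.0616, edgeR). None passed the adjusted threshold (adjusted p at least 0.931, edgeR).

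*Cartpt* varied least for its mean over the 16 libraries, and its largest fitted difference was smaller than the largest of each other gene. It lay at 753, 335 and 563 CPM in wild-type oil, 502, 492, 377, 218 and 614 CPM in wild-type tamoxifen, 1087, 258, 766 and 366 CPM in *Esr1* cKO oil, and 845, 152, 735 and 563 CPM in *Esr1* cKO tamoxifen libraries. The 5 fitted log2 differences lay between -0.34 (SE 0.48) and 0.43 (SE 0.45), and the groups overlapped throughout.

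In the low-gene barcodes, which test the same comparisons outside identified cells, 9641 genes were tested and 0% passed the adjusted threshold in each of the 5 comparisons (0% in wild-type, 0% in *Esr1* cKO, 0% for the interaction, 0% under oil and 0% under tamoxifen). At an unadjusted p of 0.05 the shares were 5.54%, 5.04%, 6.04%, 6.22% and 3.5%, and 2 of the 15 tests of *Pomc*, *Cartpt* and *Npy* had such a p, both of *Cartpt*. *Agrp*, with 33 UMIs in all, did not pass the filter on low counts. *Cartpt* lay at 185, 86.5 and 201 CPM in wild-type oil and at 48.1, 113, 59.9, 79.0 and 81.2 CPM in wild-type tamoxifen libraries, a log2 difference of -1.07 (SE 0.35, unadjusted p = 0.00715, adjusted p = 0.874, edgeR). The groups overlapped through oil replicate 2, and the difference was -0.76 without oil replicate 3 (unadjusted p = 0.0635, edgeR). *Esr1* cKO oil libraries, at 63.1, 45.4, 154 and 60.1 CPM, were below wild-type oil by 0.84 on the log2 scale (SE 0.37, unadjusted p = 0.0346, adjusted p = 0.780, edgeR), a difference of -0.51 without wild-type oil replicate 3 (unadjusted p = 0.218, edgeR). In neurons, by comparison, *Cartpt* differed between the same groups by -0.34 and 0.19. *Pomc* in the low-gene barcodes differed by -0.66 (SE 0.64) for tamoxifen against oil within the wild-type mice and by -1.13 (SE 0.69) for *Esr1* cKO against wild-type mice under oil. Neither direction held throughout: without wild-type oil replicate 1 the former was 0.37 and the latter -0.09, and without the low-gene barcodes rich in a gene the latter was 0.25.

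Within cluster 5 the *Pomc* differences were larger. There *Pomc* lay at 783, 89.8 and 31.9 CPM in wild-type oil replicates 1 to 3 and at 881, 3050, 2578, 898 and 1309 CPM in wild-type tamoxifen replicates 1 to 5. These groups did not overlap, but the pituitary-marked neurons held 361 of the 398 *Pomc* UMIs of tamoxifen replicate 3 and 66 of the 106 of replicate 5 in this cluster. Without them the oil libraries lay at 678, 23.1 and 31.9 CPM and the tamoxifen libraries at 881, 3050, 260, 898 and 522 CPM, and the groups overlapped. The neuron removed from tamoxifen replicate 5 had the shared barcode that was unmarked in the other libraries of its set. In *Esr1* cKO oil replicates 1 to 4 it lay at 6034, 335, 2067 and 1372 CPM, and in *Esr1* cKO tamoxifen replicates 1 to 4 at 1471, 278, 1574 and 1693 CPM, 2 groups that overlapped each other. The libraries had 9 to 95 neurons of this cluster (median 42), and each level rested on 0 to 8 *Pomc*-rich neurons of the library.

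Among the 4029 genes tested in cluster 5 with edgeR's quasi-likelihood test, 0% passed the adjusted threshold in each comparison (0% in wild-type, 0% in *Esr1* cKO, 0% for the interaction, 0% under oil and 0% under tamoxifen), and the shares at an unadjusted p of 0.05 were 3.52%, 2.36%, 3.95%, 3.67% and 2.51%. Of the 20 tests of the 4 genes, 4 had such a p. *Pomc* differed by 2.59 on the log2 scale for tamoxifen against oil within the wild-type mice (SE 0.84, unadjusted p = 0.00548, edgeR), by 3.12 for *Esr1* cKO against wild-type mice under oil (SE 0.87, unadjusted p = 0.0017, edgeR), and by -3.52 for the interaction (SE 1.08, unadjusted p = 0.00378, edgeR), each with an adjusted p of at least 0.999. In *Esr1* cKO mice the tamoxifen difference was -0.92 (SE 0.69), and under tamoxifen the genotypes differed by -0.40 (SE 0.66). *Npy* differed by 1.60 for *Esr1* cKO against wild-type mice under tamoxifen (SE 0.75, unadjusted p = 0.0446, edgeR), and by 0.70 without *Esr1* cKO tamoxifen replicate 1 (unadjusted p = 0.370, edgeR).

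The 3 *Pomc* differences share the wild-type oil group, where 4 neurons in all were *Pomc*-rich, 3 of them in replicate 1. Within the sets of libraries that share barcodes, the wild-type difference in log2(CPM + 10) was 1.95, 5.95 and 3.16, positive in each of the 3 sets that hold both groups. The value of 5.95 compares oil replicate 3, at 31.9 CPM, with tamoxifen replicate 3, which fell from 2578 to 260 CPM without the pituitary-marked neurons. The fitted wild-type difference was 4.82 without wild-type oil replicate 1, 2.03 without the 2 libraries that stood apart, 2.29 without shared barcodes (unadjusted p = 0.0609, edgeR) and 2.26 without the pituitary-marked neurons (unadjusted p = 0.0256, edgeR). Without these neurons the genotypes differed by 3.45 under oil (unadjusted p = 0.0021, edgeR), with an interaction of -3.17 (unadjusted p = 0.016, edgeR). Without wild-type oil replicate 1 these were 5.35 and -5.74. Without the filter on low counts, which raises the genes tested to 20039, the 3 *Pomc* differences kept their size (2.63, 3.21 and -3.49) and passed the adjusted threshold (adjusted p = 7.29e-11, 1.15e-15 and 1.52e-11, edgeR), as did 5 further tests of *Npy* and *Agrp*. Over all genes and the 5 comparisons, 35 tests passed without the filter, these included. In that fit the quasi-likelihood dispersion used for *Pomc* was 0.874 in place of 5.78, since edgeR then gave every gene the dispersion of the trend and not its own.

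**Figure D5:**
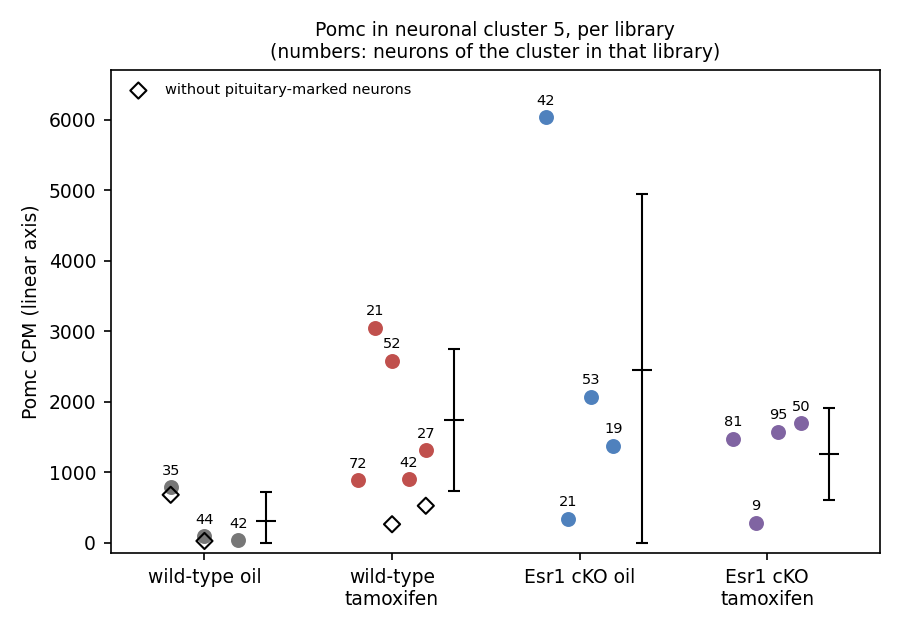
CPM of *Pomc* in cluster 5 in each library, with the number of neurons of the cluster beside each point, and the mean and SD over the libraries of each group (the bar is stopped at 0). The 5 wild-type tamoxifen libraries, at 881 to 3050 CPM, lie above the 3 wild-type oil libraries, at 31.9 to 783 CPM, and the *Esr1* cKO groups overlap. Open diamonds give the 4 libraries that change without pituitary-marked neurons, where tamoxifen replicates 3 and 5 fall to 260 and 522 CPM, below oil replicate 1 at 678 CPM. The neuron removed from replicate 5 has a barcode that was unmarked in other libraries.

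The share of neurons rich in a gene does not weigh a neuron by its count. *Pomc*-rich neurons were 0.366% ± 0.476 of the neurons in wild-type oil (SD, n = 3), 0.609% ± 0.479 in wild-type tamoxifen (n = 5), 0.643% ± 0.412 in *Esr1* cKO oil (n = 4) and 1.05% ± 0.269 in *Esr1* cKO tamoxifen mice (n = 4). None of the 4 comparisons of *Pomc* passed (p = 0.143 to 0.518, two-sided exact permutation tests). Without the pituitary-marked neurons, the share under tamoxifen was higher in *Esr1* cKO than in wild-type mice by 0.65 points (p = 0.00794, the smallest p for 4 against 5 mice, exact permutation test). Of the 10 removed neurons, 6 lay in wild-type tamoxifen replicate 3, 1 in replicate 5 and 1 in *Esr1* cKO tamoxifen replicate 1, so the removal itself lowers the wild-type share. That setting was added after the data were seen, and its p is unadjusted. With all neurons the genotypes differed by 0.438 points under tamoxifen (p = 0.167, exact permutation test). The same comparison gave 0.64 points without wild-type tamoxifen replicate 3 (p = 0.0286, exact permutation test) and 0.0879 points as a share of all kept cells (p = 0.0317, exact permutation test). In *Esr1* cKO mice, tamoxifen and oil differed by 0.58 points without oil replicate 1 (p = 0.0286, exact permutation test). *Agrp*-rich neurons ranged from 0.273% ± 0.260 in wild-type tamoxifen to 0.835% ± 1.02 in *Esr1* cKO tamoxifen mice, and none of its comparisons passed either (p = 0.250 to 0.400, exact permutation tests).

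*Cartpt*-rich and *Npy*-rich neurons were fewer in tamoxifen-treated than in oil-treated wild-type mice at an unadjusted p under the threshold, the 2 of 16 comparisons of shares to do so. *Cartpt*-rich neurons made up 7.23%, 4.45% and 5.91% of the neurons in wild-type oil replicates 1 to 3 and 4.42%, 3.26%, 2.84%, 1.80% and 4.39% in wild-type tamoxifen replicates 1 to 5, a difference of -2.52 percentage points (p = 0.0357, exact permutation test, where 0.0179 is the smallest p for 3 against 5 mice). The groups did not overlap, although oil replicate 2 and tamoxifen replicate 1 nearly met. Tamoxifen replicates 4 and 5 shared *Cartpt*-rich barcodes, so the test counts them as separate although they were not independent. *Npy*-rich neurons made up 0.904%, 1.35% and 1.36% against 0.552%, 1.03%, 0.532%, 0.552% and 0.676%, a difference of -0.54 points (p = 0.0357, exact permutation test), with oil replicate 1 below tamoxifen replicate 2.

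Neither held under every setting. With neurons thinned to 500 UMIs, both had p = 0.214 (exact permutation test). With a threshold of 10 UMIs the *Cartpt* difference had p = 0.321 (exact permutation test), and without wild-type oil replicate 1 it was -1.84 points (p = 0.143, exact permutation test). Leaving out wild-type tamoxifen replicate 1 or replicate 5 instead gave -2.79 and -2.78 points (p = 0.0571 each, exact permutation tests, where the smallest p for 3 against 4 mice is 0.0286). The *Npy* difference no longer passed without wild-type oil replicate 2 or replicate 3 (-0.465 and -0.460 points, p = 0.0952 each, exact permutation tests), without tamoxifen replicate 1, 3, 4 or 5 (-0.540 to -0.504 points, p = 0.0857 each, exact permutation tests) or without shared barcodes (-0.418 points, p = 0.107, exact permutation test). Of the neurons in *Esr1* cKO mice, 3.75% ± 0.884 were *Cartpt*-rich under oil and 4.61% ± 2.64 under tamoxifen (p = 0.543, exact permutation test), and 1.04% ± 0.522 and 1.54% ± 1.34 were *Npy*-rich (p = 0.657, exact permutation test, n = 4 each).

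Across the 16 libraries, 10 relations of the levels in log2(CPM + 10) were tested: the 6 pairs of genes in neurons, and each gene in neurons against itself in the low-gene barcodes. *Agrp* and *Npy* rose together (r = 0.742, p = 0.00105, adjusted 0.00665; rho = 0.642, p = 0.00877, adjusted 0.0438; permutation tests), and so did *Cartpt* and *Agrp* (r = 0.728, p = 0.00133, adjusted 0.00665; rho = 0.718, p = 0.00235, adjusted 0.0235; permutation tests). *Agrp* and *Npy* were counted in part in the same neurons, since all 46 *Agrp*-rich neurons were *Npy*-rich. The 64 neurons of the *Cited1*-led cluster held 94.6% of the neuronal *Agrp* UMIs and 72.2% of those of *Npy*. A library with more of these neurons is thus higher for both, and this relation does not add to their presence in the same neurons. Without the 2 libraries farthest from the median of the gene on the x axis, r was 0.655 for *Agrp* and *Npy* (adjusted p = 0.0625, permutation test) and 0.616 for *Cartpt* and *Agrp* (adjusted p = 0.0658, permutation test). Neither relation passed there, with 14 libraries left and a narrower range of levels. Without the replicates numbered 2 of wild-type oil and *Esr1* cKO tamoxifen, rho had an adjusted p of 0.0604 for both pairs (permutation tests), while r still passed. No other relation passed in the 16 libraries. Without shared barcodes, 3 further pairs passed by rho but not by r: *Pomc* and *Cartpt* (rho = 0.576, adjusted p = 0.043; r = 0.494, adjusted p = 0.102), *Pomc* and *Npy* (rho = 0.624, adjusted p = 0.0423; r = 0.562, adjusted p = 0.0661), and *Cartpt* and *Npy* (rho = 0.600, adjusted p = 0.0423; r = 0.555, adjusted p = 0.0661; permutation tests). The levels in neurons and in low-gene barcodes of the same library had r = 0.058 for *Pomc*, 0.534 for *Cartpt*, 0.349 for *Agrp* and 0.466 for *Npy* (adjusted p = 0.83, 0.0828, 0.231 and 0.137, permutation tests). The sets of libraries that share barcodes hold 4 libraries each, too few for a value within a single set. A value pooled within sets was not calculated, so these relations do not take the sets into account.

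The wider feeding pathway was examined through 6 lists with 74 entries, of which 61 passed the filter on low counts in neurons. None of their genes passed the adjusted threshold in any of the 5 comparisons, and 27 of 305 tests had an unadjusted p under 0.05 (8.85%), against 3.08% to 5.19% of all genes by comparison. By list, 0 of 5 peptide receptors, 0 of 8 processing enzymes, 0 of 11 hormone and nutrient receptors, 0 of 8 arcuate transcription factors, 0 of 10 leptin signalling genes and 0 of 19 other feeding peptides passed in either direction. The median log2 differences of the lists lay between -0.20 and 0.70, with the highest for the 5 peptide receptors in *Esr1* cKO against wild-type mice under oil (0.70, against 0.01 over all genes).

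Of the genes named for each list, *Pcsk1* had the smallest p-values, 1.08 higher on the log2 scale in *Esr1* cKO than in wild-type mice under oil (SE 0.32, unadjusted p = 0.00357, edgeR) and 0.98 under tamoxifen (SE 0.26, unadjusted p = 0.00157, adjusted p = 0.790, edgeR). *Tbx3* differed between the genotypes by 1.23 under tamoxifen (SE 0.37, unadjusted p = 0.00359, edgeR) and 0.44 under oil (SE 0.43). *Hcrt* differed by -3.30 under tamoxifen (SE 1.54, unadjusted p = 0.0467, edgeR). *Npy1r* had differences of -0.16 to 0.70 and *Mc4r* of -1.46 to 1.21, with standard errors of up to 0.52 and 0.95. *Pcsk2*, *Lepr*, *Isl1* and *Pmch* had an unadjusted p above 0.05 in each comparison, and *Ghsr* did not pass the filter on low counts.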

How the data were processed

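The authors deposited, for each of the 16 mice, whole-number UMI counts of each gene in each barcode, without normalization or pooling. Per the labels, reads were processed with STAR 2.6 and Seurat 3.6.1 on mm10; the annotation and the handling of strand are not given in the sources used here. Drop-seq tags transcript ends, so counts were not scaled by length, and a barcode's counts hold free RNA as well as the RNA of its cell.

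As in the study, barcodes were kept with over 200 but below 4000 genes and a share of mt- UMIs under 15%, giving 1746 to 5568 per library. They were clustered in Seurat 5.3.0 (R 4.3.3) after CCA anchors between the 4 groups (2000 variable genes, 30 anchor dimensions, 20 principal components), without the 4 genes, and named from fixed markers. Neurons were clustered again with 500 variable genes. Clusters named here stand for cells like these types. Doublets were called by Scrublet (scanpy 1.11.5; 494 of 55675 cells) and removed only in an alternative.

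UMIs were summed per library over neurons, over barcodes with 200 genes or fewer, and over the richest neuronal cluster (libraries with at least 5 such neurons). One fit of the 4 groups in edgeR 4.0.16 (quasi-likelihood F test, TMM, filterByExpr, Benjamini-Hochberg adjustment over all genes tested, threshold 0.05, two-sided) gave 5 comparisons. The study tested single cells; here the mouse is the unit. On counts simulated from the neuron sums, the test of tamoxifen within the wild-type mice recovered 29% of 200 changed genes among 12438 at a log2 fold change of 1, 81.5% at 2 and 95.5% at 3. The changed genes were drawn at random with their own dispersions. The fits of the 4 genes in neurons had standard errors of 0.446 to 1.27, so these rates do not hold for them. Shares of rich neurons (at least 5 UMIs) were compared by exact permutation tests and relations across libraries by 100000 permutations. Intervals at 95% and floors of 3 UMIs cover counting error only.

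Alternatives were DESeq2 1.42.0, its size factors, no filter on low counts, 1 genotype alone, blocks of libraries, each library left out, pairs of libraries left out, cells with more than 500 genes, under 5% mt- UMIs, no doublets, low-gene barcodes under 15% mt- UMIs or with 100 genes or fewer, thresholds of 3 and 10 UMIs, thinning to 500 UMIs, all kept cells as the denominator, the 4 genes kept in the clustering and a pseudocount of 1 in place of 10. After the data were seen, settings without the libraries that stood apart, without shared barcodes, with sets of libraries that share barcodes as a block, without pituitary-marked *Pomc*-rich neurons, without rich low-gene barcodes and without the 2 libraries farthest on the x axis were added.

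The 4 genes and all lists were chosen with earlier results of these data known. Named genes are the 4 genes, list genes past the threshold in neurons (up to 3 per list and comparison; none passed), *Mc4r*, *Npy1r*, *Pcsk1*, *Pcsk2*, *Lepr*, *Ghsr*, *Tbx3*, *Isl1*, *Hcrt* and *Pmch*, and the 5 genes most alike across clusters for each of the 4, among genes with at least 200 UMIs in neurons. Others are said to be chosen after their values were seen.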

Additional observations from a re-analysis of the deposited data

Results flagged for a closer look

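Of 48 groups of 4 or 5 libraries examined over the 4 genes, 7 had a library whose distance from the nearest other, against the range of the group, exceeded Dixon's 95% critical value. Chance flags about 1 in 20 groups, or 2.4 of 48, and these groups share libraries. In neurons, *Npy* in *Esr1* cKO tamoxifen replicate 1 was at 832 CPM, against 123 to 214 CPM in the other 3 libraries. In cluster 5, *Pomc* in *Esr1* cKO tamoxifen replicate 2, with 9 neurons of the cluster, was at 278 CPM, against 1471 to 1693 CPM. In the low-gene barcodes, *Esr1* cKO oil replicate 3 was the highest of its group for 3 genes, with *Pomc* at 65.8 CPM (others 14.4 to 16.2), *Cartpt* at 154 CPM (others 45.4 to 63.1) and *Npy* at 47.8 CPM (others 8.25 to 14.6). Wild-type tamoxifen replicate 5 had *Npy* in low-gene barcodes at 46.6 CPM, against 9.95 to 19.4 CPM. The share of *Npy*-rich neurons in wild-type tamoxifen replicate 2 was 1.03%, against 0.532% to 0.676% in the other 4 libraries. What sets these libraries apart was not tested.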

How the results depend on the processing

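No paired analysis was possible because GEO's labels give no replicate number or day shared between groups, and the replicates were numbered in accession order. The study's methods describe 4 days with 4 mice a day, but which mice shared a day is not given in the labels. Successive fours of library numbers and, as an alternative chosen after the data were seen, the sets of libraries that share barcodes were each used as a block, and whether either stands for the days was not tested.

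None of the 4 genes passed the adjusted threshold in neurons or in low-gene barcodes under any setting, DESeq2 included, and none in cluster 5 under any setting but the absence of a filter on low counts, which gave 8 calls (3 of *Pomc*, 3 of *Npy* and 2 of *Agrp*). Over all 20039 genes, that setting gave 35 calls in the 5 comparisons, these 8 included. The cluster was itself chosen as the richest in the 4 genes. Leaving out each library in turn gave 0 calls in each of these 3 sets of counts. The cause of differences between settings was not tested beyond the dispersion given for *Pomc*.

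Values below are log2 differences that changed sign; none was called. In neurons, without the 2 libraries that stood apart, the tamoxifen effect in wild-type mice was 0.12 for *Agrp* and 0.060 for *Npy*, that on *Pomc* in *Esr1* cKO mice -0.0033, the *Cartpt* interaction -0.0011, and *Esr1* cKO against wild-type mice under oil 0.37 for *Agrp* and 0.56 for *Npy*. Without the replicates numbered 2 of wild-type oil and of *Esr1* cKO tamoxifen, *Cartpt* differed by 0.21 for tamoxifen in *Esr1* cKO mice and -0.078 between the genotypes under oil, and with the block the former was 0.0079. In low-gene barcodes, the tamoxifen effect in *Esr1* cKO mice became 0.096, 0.22 and 0.020 for *Npy* and 0.19, 0.051 and 0.31 for *Pomc*, and *Cartpt* between the genotypes under tamoxifen 0.13, 0.064 and 0.044, without the replicates numbered 2, without the libraries that stood apart and with the block. Under 15% mt- UMIs the *Pomc* interaction was -0.996 and *Npy* between the genotypes under tamoxifen -0.33. Without rich low-gene barcodes the *Pomc* interaction was -0.19, and *Pomc* between the genotypes 0.25 under oil and 0.068 under tamoxifen. In cluster 5, without the libraries that stood apart, the tamoxifen effect in wild-type mice was 0.58 for *Agrp* and -0.12 for *Cartpt*, and the genotypes under oil differed by 0.84 for *Agrp* and 0.51 for *Npy*. Under tamoxifen the genotypes differed by 0.045 for *Cartpt* without the replicates numbered 2 and by 0.28 for *Pomc* without pituitary-marked neurons. In the cluster richest in *Cartpt* with the 4 genes kept in the clustering, the 5 *Cartpt* differences were -0.11 and 0.46 for tamoxifen in the wild-type and the *Esr1* cKO mice, 0.57 for the interaction, and -0.084 and 0.48 between the genotypes under oil and tamoxifen. *Agrp* and *Npy* in their richest cluster then moved to 3603 and 12648 CPM.

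Leaving out 1 library changed the sign of uncalled differences. In neurons, the tamoxifen effect in wild-type mice ran from -1.68 to 0.11 for *Agrp* and from -1.24 to 0.071 for *Npy*, and that in *Esr1* cKO mice from -0.34 to 0.32 for *Cartpt* and from -0.26 to 1.22 for *Pomc*. The *Cartpt* interaction ran from -0.020 to 0.64, and the genotypes under oil from -1.92 to 0.33 for *Agrp*, -0.21 to 0.46 for *Cartpt* and -0.73 to 0.56 for *Npy*. In low-gene barcodes, *Pomc* ran from -1.12 to 0.37 in wild-type mice, from -0.76 to 0.69 in *Esr1* cKO mice and from -0.44 to 1.35 for the interaction, *Npy* and *Cartpt* in *Esr1* cKO mice from -0.48 to 0.77 and from -0.50 to 0.12, and between the genotypes under tamoxifen from -0.41 to 0.58 and from -0.26 to 0.14. In cluster 5, the ranges were -1.21 to 0.61 for *Agrp* and -0.28 to 0.87 for *Cartpt* in wild-type mice, -1.51 to 0.12 for *Cartpt* and -1.27 to 0.053 for *Pomc* in *Esr1* cKO mice, -1.37 to 0.80 for *Agrp*, -0.082 to 1.81 for *Cartpt* and -1.51 to 0.49 for *Npy* under oil, and -0.56 to 0.31 for *Cartpt* between the genotypes under tamoxifen.

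Of the 16 comparisons of shares, 2 passed an unadjusted p of 0.05, and between 0 and 3 without 1 library. The count was 1 with a threshold of 10 UMIs, with neurons thinned to 500 UMIs, with all kept cells as the denominator, without the libraries that stood apart and without shared barcodes, and 3 without pituitary-marked neurons. With thinning, the share compared was that with at least 1 UMI of the gene. The 1 that passed there was *Cartpt* in *Esr1* cKO against wild-type mice under oil (-4.18 points, p = 0.0286, exact permutation test). This comparison also passed at 3 UMIs (-3.64 points, p = 0.0286, exact permutation test), where *Cartpt* for tamoxifen in wild-type mice did not (p = 0.0536, exact permutation test). With all kept cells, the 1 was *Pomc* between the genotypes under tamoxifen. The *Cartpt* share under tamoxifen against oil in *Esr1* cKO mice was -0.0041 points without the libraries that stood apart, with a range of -0.0041 to 1.99 without 1 library, and that of *Npy* ran from -0.15 to 0.88. Of the relations across libraries, *Pomc* and *Npy* passed without the libraries that stood apart (r = 0.619, adjusted p = 0.0451, permutation test) and without the 2 libraries farthest on the x axis (r = 0.764, adjusted p = 0.0133, permutation test), as did *Cartpt* in neurons and low-gene barcodes in the former (r = 0.622, adjusted p = 0.0451, permutation test). *Cartpt* and *Agrp* (r = 0.616) and *Agrp* and *Npy* (r = 0.655) did not pass in the latter. A count of 3 UMIs in low-gene barcodes is at or above most *Agrp* values there, so smaller *Agrp* differences were not detectable at this depth.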

Other observations

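Further genes of the lists, chosen after their values were seen, also differed between the *Pomc*-rich and *Agrp*-rich neurons in pooled counts, given without a test. *Pcsk1n*, which encodes an inhibitor of the convertase PCSK1, lay at 1772 CPM in *Pomc*-rich, 3720 CPM in *Agrp*-rich and 1356 CPM in neurons rich in none of the 4 genes. *Npy2r*, a receptor for neuropeptide Y, lay at 189, 211 and 38.2 CPM in the same order, and *Npy5r* at 63.0, 5.03 (1 UMI) and 12.1 CPM. The leptin signalling genes *Stat3* and *Foxo1* lay at 121 and 22.5 CPM in *Pomc*-rich, 191 and 121 CPM in *Agrp*-rich and 43.8 and 22.1 CPM in the other neurons. Within the *Pomc*-rich neurons, the 26 with at least 5 *Cartpt* UMIs held *Npy1r* at 254 CPM and *Gad2*, an enzyme of GABA synthesis, at 681 CPM, and the 27 without *Cartpt* held them at 13 and 208 CPM. Of these 27 neurons, 8 had a UMI of a pituitary marker other than *Pcsk2*, against 2 of the 26.

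The 54 *Npy*-rich neurons that were not *Agrp*-rich held *Sst* at 3453 CPM and *Gpr83* at 216 CPM, against 965 and 5.03 CPM in *Agrp*-rich neurons. In the 348 neurons rich in *Cartpt* alone of the 4 genes, *Pmch* lay at 751 CPM and *Slc17a6* at 277 CPM, and 6.03% of them had a *Pmch* UMI.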
